A study of Bos taurus with 32 samples.

Results

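Solute carriers (SLC genes) are membrane proteins that move sugars, amino acids, organic acids, ions, nucleotides and drugs across cell and organelle membranes, and 180 of them were read here in bovine liver. They are all genes whose symbol begins with SLC and a digit, or with SLCO, among 9155 genes that the array annotation named by 1 symbol; 6 of 186 such genes (SLC10A1, SLC11A1, SLC17A9, SLC18A2, SLC22A5 and SLC27A5) were left out of the set. The rule names genes by symbol and uses no measured value, but it was drawn up with earlier results of these data known. Where a gene had several probe sets (51 of the 180), the probe set with the highest mean was used, and 116 of the 180 had a mean above the median of all probe set means.

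Liver was biopsied from Ayrshire dairy cows on Affymetrix bovine arrays 8 days before the predicted calving (-8 d), the day after calving (1 d) and at 9 d. Energy was held to a controlled level (CON) or fed at a high level (HIGH) over 6 weeks, ending at the predicted calving. The 32 arrays came from 12 cows, 6 per diet, with 5 CON and 5 HIGH arrays at -8 d, 4 and 6 at 1 d, and 6 and 6 at 9 d. All cows calved, and the diet contrasts at 1 d and 9 d compare cows by the diet eaten before calving. Cow numbers in the labels tied the arrays together: 8 cows (3 CON, 5 HIGH) had arrays on all 3 days. Comparisons within a cow rest on 8 cows for -8 d with 1 d, 10 for -8 d with 9 d, and 10 for 1 d with 9 d.

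A transporter's direction follows its family: most plasma membrane amino acid and sugar carriers of the hepatocyte can take up or release their substrate, SLC25 proteins span the inner mitochondrial membrane, and many SLC35 proteins carry nucleotide sugars into the endoplasmic reticulum (ER) and Golgi. SLC39 (ZIP) proteins bring zinc into the cytosol and SLC30 (ZnT) proteins take it out. Around calving the cow's liver takes up lactate, propionate, amino acids and fatty acids and releases glucose for milk.

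Levels are log2 values after RMA, the robust multi-array average that quantile normalises arrays, so each difference is relative to the bulk of probe sets. Changes are log2 differences between group means, averaged over both diets unless a diet is named, with their standard errors (SE). They were tested by limma with cow as a random block and Benjamini-Hochberg adjustment over all 24016 probe sets, and a member passed at an adjusted p under 0.05. In a biopsy, fewer cells of a type and less RNA per cell cannot be told apart. A within-cow fit, with cow as a fixed block, is cited for most of the calls that it changed, and the others are named at the end.

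More solute carriers were higher than lower after calving, as were named genes as a whole. No group spent these days without calving, so calving, time and the end of the prepartum diets cannot be told apart. At 1 d against -8 d, 54 of the 180 members passed, beside 23.0% of all probe sets and 28.8% of the 9155 named genes with 1 probe set each, so the share of members as a whole lay near that of named genes. Of these, 38 rose (21.1% of members, beside 11.5% of all probe sets and 16.5% of named genes) and 16 fell (8.89%, beside 11.6% and 12.3%). At 9 d against -8 d, 17 passed (9.44%, the same as the 9.44% of all probe sets): 13 rose (7.22%, beside 5.18%) and 4 fell (2.22%, beside 4.25%). Of the named genes, 12.9% passed at 9 d against -8 d, 7.79% up and 5.08% down, so the members' shares were no higher than those. At 9 d against 1 d, 35 passed (19.4%, beside 13.1%), of which 12 rose (6.67%, beside 6.11%) and 23 fell (12.8%, beside 6.99%). Of the named genes, 17.5% passed in that comparison, 7.44% up and 920 of 9155 down, so the members' share lay near theirs. The counts of each substrate class below are to be read beside these shares of named genes.

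The median change over the 180 was 0.03 at 1 d (all probe sets -0.02), 0.01 at 9 d (-0.02) and -0.02 from 1 d to 9 d (0.00). The changes were mostly small: 9 members rose and 3 fell by at least 1.5-fold at 1 d, 0 rose and 1 fell by that much at 9 d against -8 d, and 1 rose and 5 fell between 1 d and 9 d. In all, 67 members passed in at least 1 of the 3 comparisons and 113 in none. The 3 comparisons share arrays, so their values are given side by side only. Without cow 483 the count at 1 d was 40, without cow 477 that at 9 d was 13 and without cow 510 that from 1 d to 9 d was 25.

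**Figure D1:**
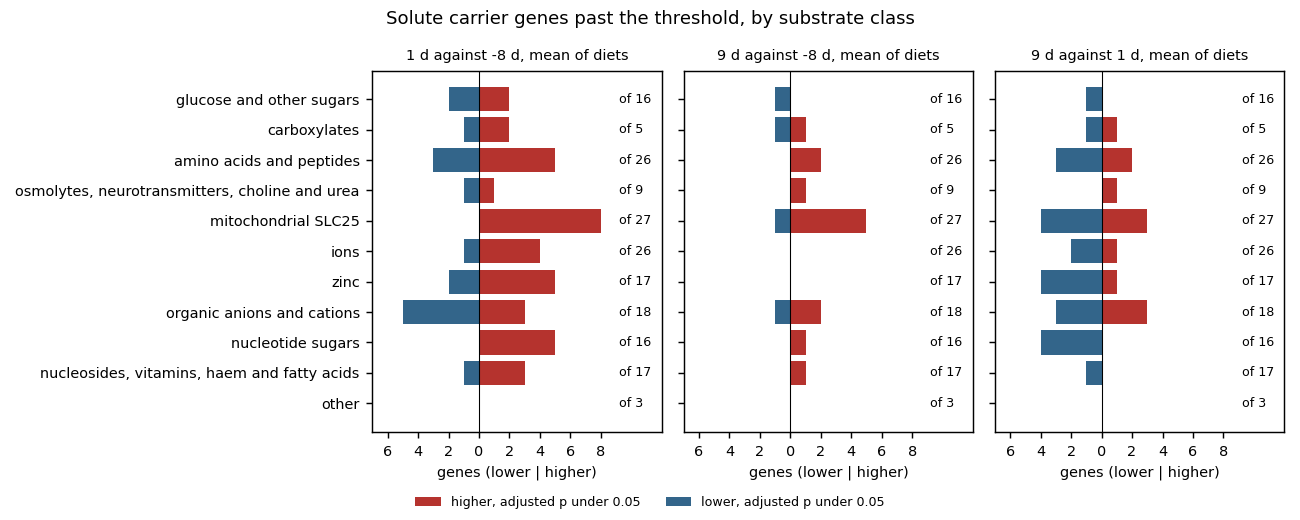
Number of solute carriers that rose or fell in each substrate class, for 1 d against -8 d, 9 d against -8 d and 9 d against 1 d (limma, adjusted p under 0.05). Mitochondrial SLC25 carriers (27 genes) had 8 rises and 0 falls at 1 d, and organic anion and cation carriers (18 genes) had 3 rises and 5 falls. Of all named genes, 16.5% rose and 12.3% fell at 1 d.

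**Figure D2:**
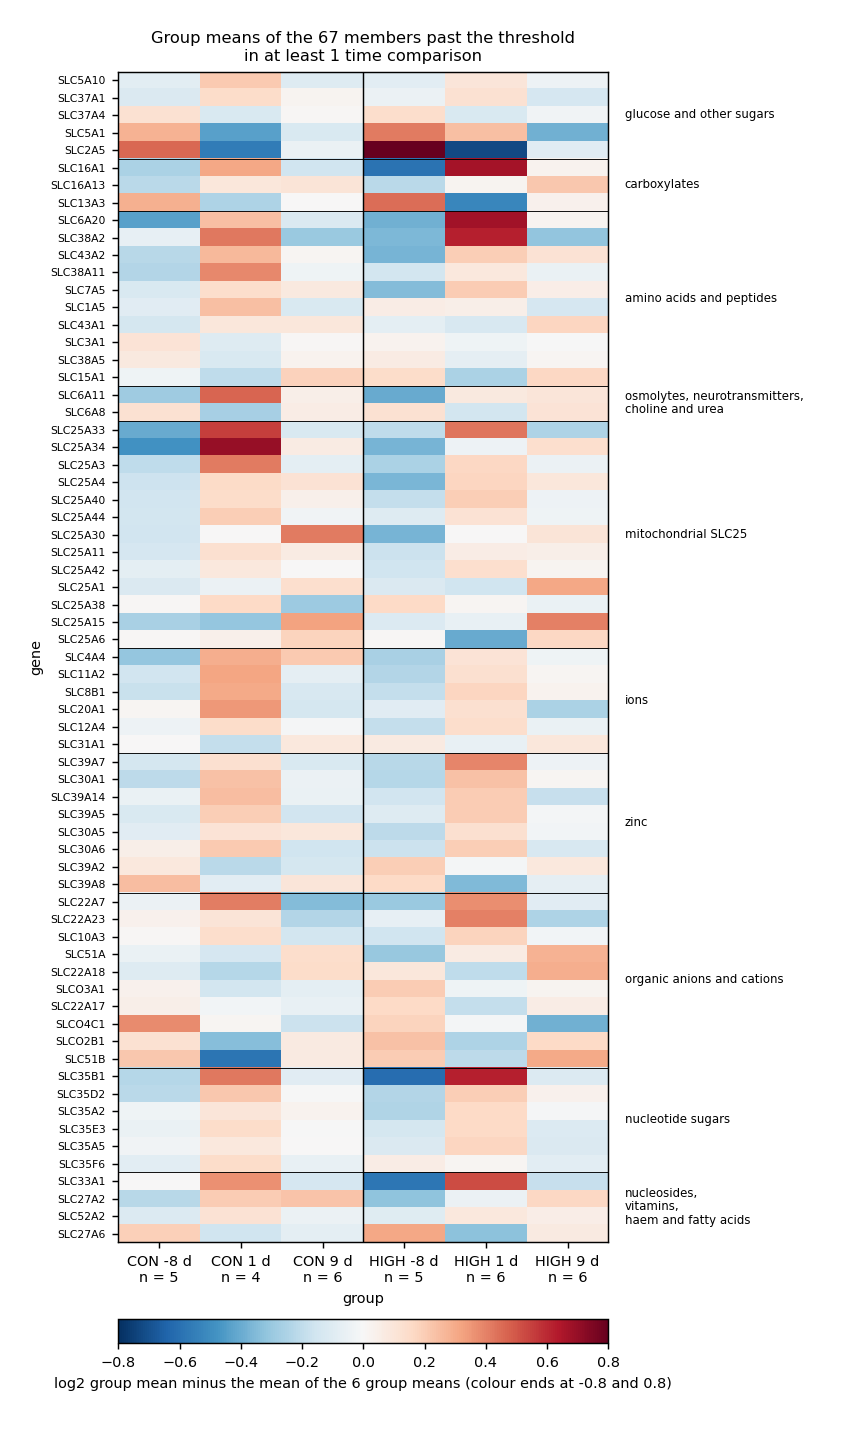
Mean log2 level in the 6 diet-by-day groups of the 67 solute carriers that passed in at least 1 time comparison, drawn as the difference from the mean of the gene's 6 group means (colours end at -0.8 and 0.8) and ordered by substrate class. SLC16A1, SLC38A2, SLC35B1 and SLC33A1 are highest at 1 d in both diets, and SLC2A5 and SLC13A3 lowest.

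Carriers of lactate and other carboxylates held some of the largest changes, in opposite directions. Of 5 members, 2 rose and 1 fell at 1 d (beside 16.5% and 12.3% of named genes), 1 rose and 1 fell at 9 d, and 1 rose and 1 fell from 1 d to 9 d (median changes 0.28, 0.35 and 0.01). SLC16A1 (MCT1), which carries lactate, pyruvate and ketone bodies together with protons, had levels of 7.85, 7.15, 7.01, 6.85 and 7.04 in the CON arrays at -8 d and of 7.37, 7.54, 7.63 and 8.41 in those at 1 d. In HIGH it was 6.32, 6.82, 7.33, 7.07 and 6.65 at -8 d and between 7.51 and 8.81 at 1 d, so the HIGH days did not overlap while the CON days overlapped through 1 high array at -8 d. SLC16A1 rose by 0.91 (SE 0.16, 1.88-fold, adjusted p = 0.000107), higher in 7 of 8 cows, and fell by 0.55 from 1 d to 9 d (SE 0.15, adjusted p = 0.0149), lower in 9 of 10 cows. The latter call was lost without cow 510, without cow 529 and among the cows with all 3 days (adjusted p up to 0.117).

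SLC13A3 (NaDC3), a sodium-coupled importer of succinate and other dicarboxylates, went the other way. Its lowest, median and highest levels were 7.54, 7.95 and 8.17 at -8 d, 6.51, 7.19 and 7.60 at 1 d, and 7.25, 7.50 and 7.86 at 9 d. The ranges at -8 d and 1 d overlapped by a few arrays only, and 9 d lay between them. SLC13A3 fell by 0.75 at 1 d (SE 0.10, 1.68-fold lower, adjusted p = 3.21e-06), in 7 of 8 cows, and rose by 0.41 from 1 d to 9 d (adjusted p = 0.00417). It was lower by 0.34 at 9 d than at -8 d (adjusted p = 0.0239, and 0.0511 in the within-cow fit). That last call was also lost without each of cows 439, 477, 527 and 529 (adjusted p up to 0.0904). SLC16A13, a monocarboxylate transporter family member, was at 10.01, 10.31 and 10.43 (lowest, median, highest) at -8 d and at 10.28, 10.58 and 11.13 at 9 d. It rose by 0.38 at 9 d (adjusted p = 0.00652), in 10 of 10 cows. Its rise of 0.28 at 1 d passed (adjusted p = 0.0363), but not in the within-cow fit (0.26, adjusted p = 0.0709). SLC16A3 (MCT4), a lactate exporter, changed by 0.13 at 1 d without passing (adjusted p = 0.101).

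**Figure D3:**
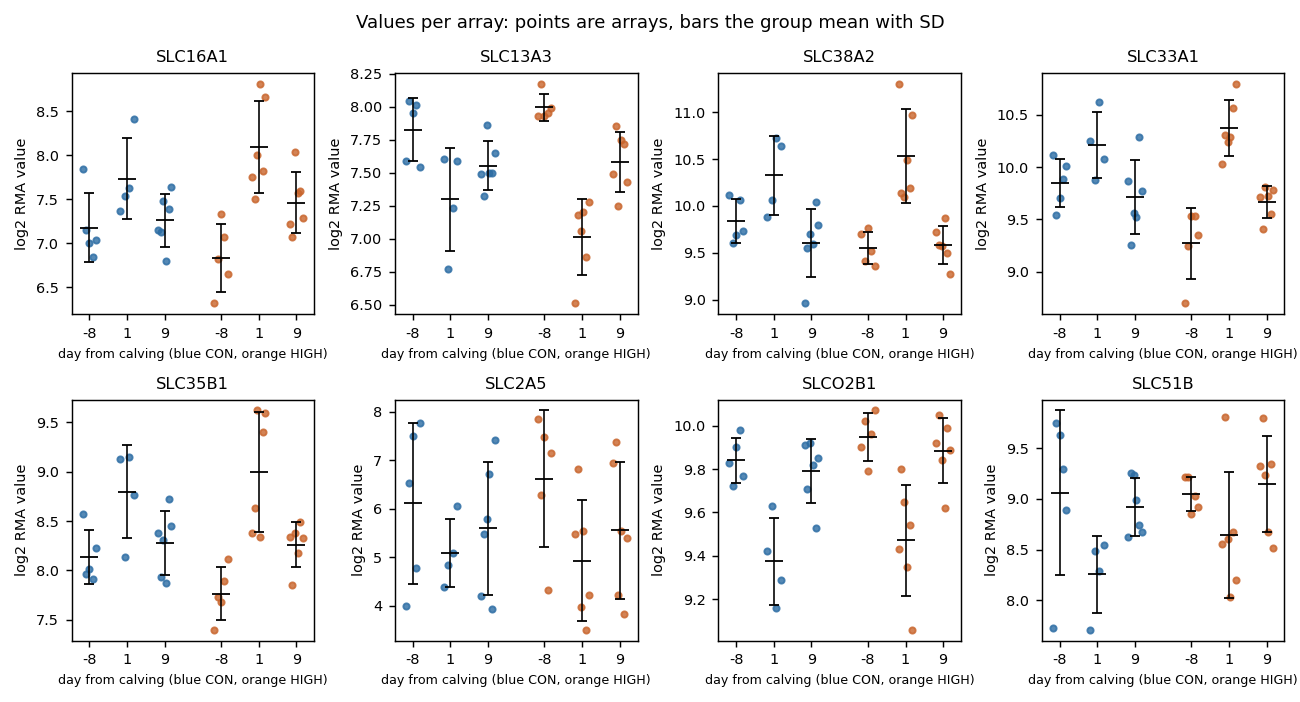
Log2 level on every array of SLC16A1, SLC13A3, SLC38A2, SLC33A1, SLC35B1, SLC2A5, SLCO2B1 and SLC51B, by day and diet; points are arrays, bars are the group mean and SD. SLC2A5 shows the widest scatter within groups, from 3.51 to 7.86 over all arrays.

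Of 16 sugar carriers, 2 rose and 2 fell at 1 d (beside 16.5% and 12.3% of named genes), 1 fell at 9 d and 1 fell from 1 d to 9 d (median changes -0.03, -0.05 and -0.05). SLC2A2 (GLUT2), the facilitative glucose transporter of the hepatocyte membrane, had 7.22, 7.72 and 8.38 (lowest, median, highest) at -8 d, 7.14, 7.62 and 8.07 at 1 d, and 6.97, 7.39 and 7.91 at 9 d, with wide overlap. Its change was -0.09 at 1 d (adjusted p = 0.654) and -0.35 at 9 d (SE 0.12, adjusted p = 0.0511), lower in 9 of 10 cows. The 9 d difference passed in the within-cow fit (-0.36, adjusted p = 0.037). SLC37A4, which brings glucose 6-phosphate into the ER for its hydrolysis, fell by 0.24 at 1 d (adjusted p = 0.0456), but its other probe sets changed by 0.07 and 0.15 and the call was lost in 12 of 20 alternatives (adjusted p up to 0.974). SLC2A1 (GLUT1), a glucose transporter of many cell types, changed by 0.10 at 1 d without passing (adjusted p = 0.353).

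SLC2A5 (GLUT5), a fructose transporter, had the largest change of any member and the widest spread. The CON arrays were at 3.99, 6.54, 7.50, 4.78 and 7.76 at -8 d and at 4.38, 4.84, 5.09 and 6.05 at 1 d. The HIGH arrays were at 7.86, 6.29, 7.48, 4.33 and 7.15 at -8 d and had a lowest, median and highest of 3.51, 4.86 and 6.83 at 1 d. The days overlapped in both diets, and some cows were low throughout: cow 445 stayed between 3.99 and 4.38 and cow 462 between 3.51 and 4.33. SLC2A5 fell by 1.40 at 1 d (SE 0.49, adjusted p = 0.037), in 7 of 8 cows, and by 1.56 with a smaller error in the within-cow fit (SE 0.23, adjusted p = 4.36e-05). The within-cow fit also called a fall of 0.99 at 9 d (SE 0.21, adjusted p = 0.00374), where the random block did not (-0.84, adjusted p = 0.291). The call at 1 d was lost in 8 of 19 alternatives, among them leaving out cow 439, 460, 477, 483, 528 or 529 (adjusted p up to 0.128).

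SLC5A1 (SGLT1), which couples glucose uptake to sodium, was at 6.95, 7.48 and 8.26 (lowest, median, highest) at -8 d and at 5.99, 7.05 and 7.56 at 9 d. It fell by 0.60 at 9 d (SE 0.16, adjusted p = 0.0137), in 8 of 10 cows; its change at 1 d was -0.43 (adjusted p = 0.0623, and 0.0494 in the within-cow fit). SLC37A1, a relative of the glucose 6-phosphate carrier, rose by 0.22 at 1 d (adjusted p = 0.0366, and 0.0521 in the within-cow fit), a call lost in 8 of 19 alternatives (adjusted p up to 0.225). SLC5A10, a sodium-coupled carrier of mannose and fructose, rose by 0.24 at 1 d (adjusted p = 0.0229), higher in 8 of 8 cows, and fell by 0.22 from 1 d to 9 d (adjusted p = 0.039). Its other probe sets changed by 0.06 and -0.09 at 1 d, and the 2 calls were lost in 6 and in 12 of 20 alternatives (adjusted p up to 0.325 and 0.403).

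Among 26 amino acid and peptide carriers, 5 rose and 3 fell at 1 d (beside 16.5% and 12.3% of named genes), 2 rose at 9 d, and 2 rose and 3 fell from 1 d to 9 d (median changes 0.10, 0.02 and -0.06). SLC38A2 (SNAT2), which takes up alanine, glutamine and other small neutral amino acids with sodium, was at 9.36, 9.70 and 10.12 (lowest, median, highest) at -8 d, 9.88, 10.34 and 11.30 at 1 d, and 8.96, 9.59 and 10.04 at 9 d. Levels at 1 d were the high ones, overlapping the other days only at their lower end. SLC38A2 rose by 0.73 at 1 d (SE 0.14, 1.66-fold, adjusted p = 0.000185), in 7 of 8 cows, and fell by 0.84 from 1 d to 9 d (SE 0.13, 1.79-fold lower, adjusted p = 2.96e-05), in 10 of 10 cows. A dimmer probe set of the same gene also passed both ways, with 0.24 and -0.28.

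SLC6A20, a sodium-coupled proline transporter, had one of the clearest separations although it was dim: 3.72, 4.00 and 4.23 at -8 d, 4.27, 4.87 and 6.16 at 1 d, and 3.71, 4.33 and 5.22 at 9 d (lowest, median, highest). No array at 1 d was as low as the highest at -8 d. SLC6A20 rose by 0.88 (SE 0.15, 1.84-fold, adjusted p = 4.78e-05), in 8 of 8 cows, and fell by 0.50 from 1 d to 9 d (adjusted p = 0.0149; 0.0723 at most, when cow 483 or the cows without all 3 days were left out). At 9 d it was higher by 0.38 than at -8 d (adjusted p = 0.0828), a difference that passed in the within-cow fit (0.43, adjusted p = 0.0127).

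Carriers of branched-chain and aromatic amino acids followed separate courses. SLC43A2 (LAT4), which lets these amino acids pass by facilitated diffusion, was at 6.60, 6.81 and 7.24 at -8 d, 7.12, 7.42 and 7.76 at 1 d, and 7.04, 7.22 and 7.54 at 9 d (lowest, median, highest). It rose by 0.53 at 1 d (SE 0.08, adjusted p = 1.06e-05), in 8 of 8 cows, and was still higher by 0.37 at 9 d (adjusted p = 0.00124). Its relative SLC43A1 (LAT3) changed by 0.09 at 1 d and rose by 0.24 at 9 d (adjusted p = 0.00226), in 10 of 10 cows. SLC7A5 (LAT1), the exchanger of large neutral amino acids, rose by 0.39 at 1 d (adjusted p = 0.00627), in 7 of 8 cows. However, 1 CON array of SLC7A5 at -8 d (6.05) lay above the highest at 1 d (5.75). Its partner chain SLC3A2 (4F2hc) changed by 0.17 without passing (adjusted p = 0.222).

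SLC15A1 (PepT1), the carrier of small peptides, fell by 0.29 at 1 d (adjusted p = 0.0123), in 8 of 8 cows, and rose by 0.40 from 1 d to 9 d (adjusted p = 0.000777), in 10 of 10 cows; its levels, 2.99 to 4.08, were near the bottom of the array's range. SLC38A11 rose by 0.42 at 1 d (adjusted p = 0.00502). It was also dim, at 3.14, 3.33 and 3.48 at -8 d and 3.24, 3.60 and 4.79 at 1 d (lowest, median, highest). The highest was 1 CON array, with the next at 3.89. SLC38A5 (SNAT5), a glutamine carrier, fell by 0.17 (adjusted p = 0.0198), and SLC3A1, the partner chain of the cystine and dibasic amino acid exchanger, fell by 0.14 (adjusted p = 0.0453, and 0.0955 in the within-cow fit). SLC1A5 (ASCT2), a glutamine exchanger, fell by 0.27 from 1 d to 9 d (adjusted p = 0.0319). The calls of SLC38A5, SLC3A1 and SLC1A5 were lost in 4 of 19, 13 of 20 and 8 of 20 alternatives (adjusted p up to 0.0976, 0.127 and 0.129). Several carriers well known in liver did not pass at 1 d: SLC38A3 (SNAT3, glutamine) changed by 0.22 (adjusted p = 0.0918), SLC1A4 (ASCT1) by 0.27 (adjusted p = 0.0506) and SLC7A1 (CAT1, arginine and lysine) by -0.06. SLC38A7, a glutamine carrier of lysosomes, passed at both days only in the within-cow fit, with 0.26 at 1 d (adjusted p = 0.019) and 0.28 at 9 d (adjusted p = 0.0131).

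SLC7A9, the exchanger chain that works with SLC3A1, is given because of its spread between animals and was chosen after its values were seen. Its levels were 4.46, 6.92 and 7.93 at -8 d, 4.22, 7.41 and 8.28 at 1 d, and 4.00, 7.02 and 7.94 at 9 d (lowest, median, highest). Cow 432 stayed between 4.00 and 4.46 and cow 510 between 4.15 and 4.22, while the other 10 cows stayed between 5.98 and 8.28. The low arrays at 1 d and 9 d so came from these 2 animals. At -8 d, where cow 510 had no array, the low array came from cow 432. The SD between cow means was 1.24 and that within cows 0.34, beside medians over the 180 members of 0.11 and 0.15; for SLC2A5 they were 1.23 and 0.51. With cow as a random block SLC7A9 changed by 0.25 at 1 d (SE 0.48, adjusted p = 0.756). Within cows it rose by 0.54 at 1 d (SE 0.12, adjusted p = 0.00192), in 7 of 8 cows, and fell by 0.45 from 1 d to 9 d (SE 0.11, adjusted p = 0.00764), in 10 of 10 cows.

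Of 27 mitochondrial SLC25 carriers, 8 rose and 0 fell at 1 d in limma, beside 16.5% and 12.3% of named genes. The share called in either direction lay near the 28.8% of named genes. At an unadjusted p under 0.05 in limma, 10 were higher and 3 lower at 1 d. By adjusted p, 5 rose and 1 fell at 9 d, and 3 rose and 4 fell from 1 d to 9 d. Median changes in the 3 comparisons were 0.10, 0.13 and -0.03. SLC25A4 (ANT1), which exchanges ADP for ATP, was at 11.72, 11.98 and 12.12 at -8 d, 12.13, 12.42 and 12.62 at 1 d, and 12.08, 12.28 and 12.54 at 9 d (lowest, median, highest). No array at 1 d was as low as the highest at -8 d. SLC25A4 rose by 0.42 at 1 d (SE 0.06, adjusted p = 7.69e-06), in 8 of 8 cows, and by 0.36 at 9 d (adjusted p = 9.98e-05), in 10 of 10 cows. The other adenine nucleotide carriers depended on the probe set: SLC25A5 (ANT2) changed by -0.19 at 1 d (adjusted p = 0.126), while another probe set of it passed with 0.44. SLC25A6 (ANT3) changed by -0.20 at 1 d (adjusted p = 0.0855; -0.24 and 0.0215 in the within-cow fit) and rose by 0.36 from 1 d to 9 d (adjusted p = 0.00252), with other probe sets at 0.04 and -0.03 at 1 d.

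SLC25A3, the phosphate carrier that feeds ATP synthesis, was at 10.81, 10.89 and 11.27 at -8 d, 11.16, 11.40 and 11.91 at 1 d, and 10.89, 11.08 and 11.42 at 9 d. It rose by 0.51 at 1 d (SE 0.08, adjusted p = 9.94e-06), in 8 of 8 cows, and fell by 0.34 from 1 d to 9 d (adjusted p = 0.00132), in 9 of 10. SLC25A33, a carrier of pyrimidine nucleotides, was at 8.62, 8.90 and 9.70 at -8 d, 9.04, 9.90 and 10.34 at 1 d, and 8.67, 9.12 and 9.40 at 9 d. Its high arrays at 1 d stood above all arrays of the other days, but its low ones overlapped them. SLC25A33 rose by 0.80 (SE 0.14, 1.74-fold, adjusted p = 6.88e-05) and fell by 0.66 from 1 d to 9 d (adjusted p = 0.000673); another probe set of the gene gave 0.90 and -0.78.

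Other rises at 1 d were smaller. SLC25A44, which carries branched-chain amino acids, rose by 0.28 (adjusted p = 8.61e-05) and fell by 0.18 from 1 d to 9 d (adjusted p = 0.00717). SLC25A40, a mitochondrial glutathione carrier, rose by 0.34 (adjusted p = 0.00665). SLC25A11, the oxoglutarate carrier of the malate-aspartate shuttle, rose by 0.23 at 1 d (adjusted p = 0.00875) and by 0.21 at 9 d (adjusted p = 0.0285, and 0.0503 in the within-cow fit). SLC25A42, a coenzyme A carrier, rose by 0.23 (adjusted p = 0.0341, and 0.0764 in the within-cow fit), a call lost in 11 of 19 alternatives (adjusted p up to 0.161). SLC25A34 rose by 0.76 (SE 0.21, adjusted p = 0.0088), with another probe set at -0.12. SLC25A20, the carnitine-acylcarnitine carrier of fatty acid oxidation, changed by 0.24 at 1 d (adjusted p = 0.103) and by 0.21 at 9 d (adjusted p = 0.194) without passing.

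Other SLC25 carriers passed at 9 d and not at 1 d, and their values for 9 d against 1 d follow. SLC25A1, which exports citrate for lipid synthesis, was at 9.51, 9.81 and 10.02 at 1 d and at 9.76, 10.20 and 10.42 at 9 d (lowest, median, highest). At -8 d its median was 9.84 and no array lay outside the range of 1 d, whereas most arrays at 9 d lay above it. SLC25A1 changed by 0.01 at 1 d and rose by 0.34 at 9 d (SE 0.06, adjusted p = 0.000408), in 10 of 10 cows, with 0.33 between 1 d and 9 d (adjusted p = 0.000363). SLC25A15, the ornithine carrier of the urea cycle, changed by -0.03 at 1 d, with 4 cows higher and 4 lower, and rose by 0.52 at 9 d (SE 0.14, adjusted p = 0.0121), in 9 of 10 cows, with 0.56 between 1 d and 9 d (adjusted p = 0.0055). SLC25A30 rose by 0.50 at 9 d (adjusted p = 0.0389, and 0.0578 in the within-cow fit), a call lost in 12 of 19 alternatives (adjusted p up to 0.139); its 0.25 between 1 d and 9 d did not pass (adjusted p = 0.343).

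SLC25A38, which brings glycine into mitochondria for haem synthesis, was at 8.16, 8.29 and 8.55 at -8 d and at 7.77, 8.04 and 8.47 at 9 d. It fell by 0.26 at 9 d (SE 0.07, adjusted p = 0.00789), in 10 of 10 cows, with overlapping ranges. Of 6 measured erythroid marker genes, 2 fell at 9 d as well: HBB fell by 1.59 (adjusted p = 0.00124) and HBA fell by 0.23. The mean of that list ran from 4.24 to 5.14 at -8 d and from 4.20 to 4.56 at 9 d, and its part in the SLC25A38 value was not tested.

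**Figure D4:**
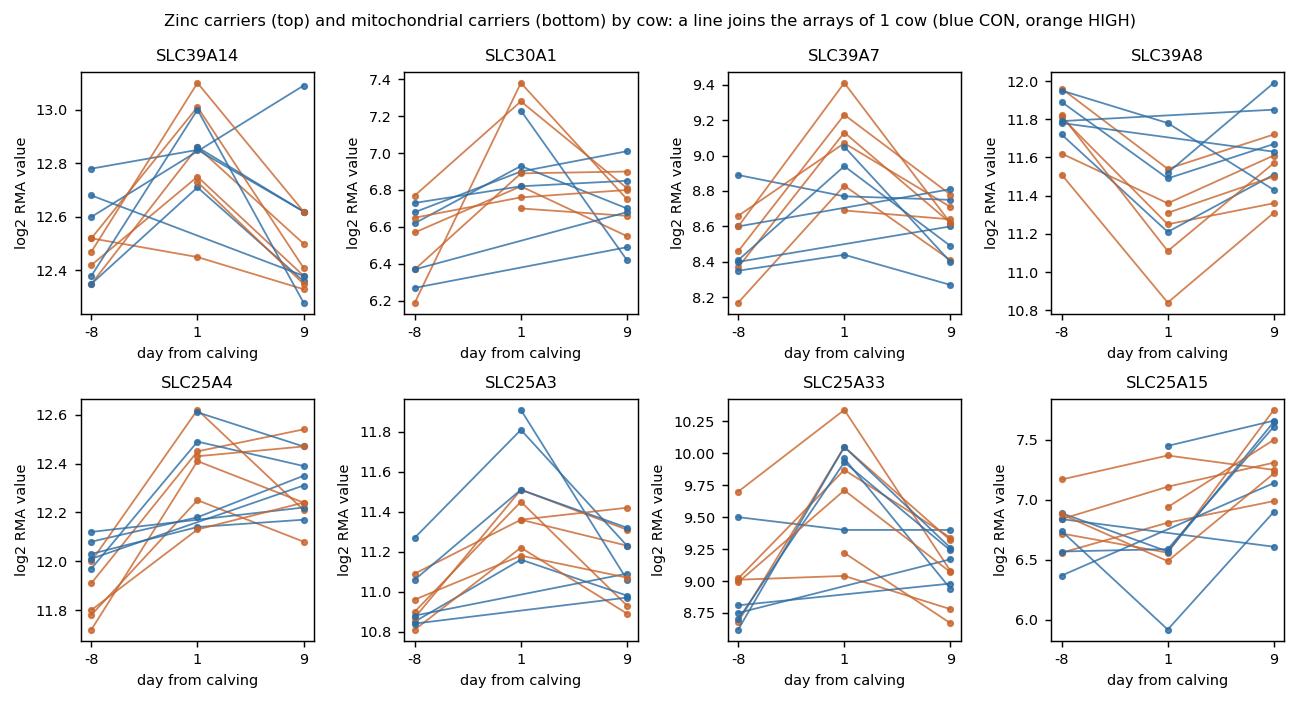
Log2 level by day in each cow, with a line per cow, of 4 zinc carriers (SLC39A14, SLC30A1, SLC39A7, SLC39A8) and 4 mitochondrial carriers (SLC25A4, SLC25A3, SLC25A33, SLC25A15). From -8 d to 1 d the lines of SLC39A8 go down in 8 of 8 cows, and those of SLC30A1, SLC25A4 and SLC25A3 go up in 8 of 8.

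Zinc carriers moved in both directions at 1 d. Of 17 members, 5 rose and 2 fell at 1 d (beside 16.5% and 12.3% of named genes), 0 passed at 9 d against -8 d, and 1 rose and 4 fell from 1 d to 9 d (median changes 0.08, -0.01 and -0.09). The share of falls at 1 d lay near that of named genes. At 9 d, 2 were higher and 3 lower at an unadjusted p under 0.05 in limma. SLC39A14 (ZIP14), the zinc importer induced in liver during inflammation, was at 12.35, 12.50 and 12.78 at -8 d, 12.45, 12.86 and 13.10 at 1 d, and 12.28, 12.39 and 13.09 at 9 d (lowest, median, highest). The median was highest at 1 d, but the ranges of the 3 days overlapped: 1 HIGH array at 1 d was as low as 12.45, 1 CON array at -8 d reached 12.78 and 1 CON array at 9 d reached 13.09. SLC39A14 rose by 0.34 (SE 0.08, adjusted p = 0.0018), in 7 of 8 cows, and fell by 0.35 from 1 d to 9 d (adjusted p = 0.00144), in 10 of 10 cows.

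SLC39A7 (ZIP7), which releases zinc from the ER, rose by 0.45 (SE 0.09, adjusted p = 0.000256) and fell by 0.34 from 1 d to 9 d (adjusted p = 0.00405), in 10 of 10 cows. SLC30A1 (ZnT1), the exporter of the plasma membrane, was at 6.19, 6.60 and 6.77 at -8 d and at 6.70, 6.89 and 7.38 at 1 d. It rose by 0.44 (adjusted p = 0.000536), in 8 of 8 cows. SLC39A5 (ZIP5) rose by 0.31 (adjusted p = 0.00106) and fell by 0.28 from 1 d to 9 d (adjusted p = 0.00302), and SLC30A5 (ZnT5), which loads zinc into the secretory pathway, rose by 0.27 (adjusted p = 0.00592).

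SLC39A8 (ZIP8), an importer of manganese and zinc, went against these. It was at 11.51, 11.80 and 11.96 at -8 d, 10.84, 11.34 and 11.78 at 1 d, and 11.31, 11.59 and 11.99 at 9 d. Arrays at 1 d were the low ones, with some overlap. SLC39A8 fell by 0.42 at 1 d (SE 0.08, adjusted p = 0.000118), in 8 of 8 cows, and rose by 0.23 from 1 d to 9 d (adjusted p = 0.0319), a call lost in 7 of 20 alternatives (adjusted p up to 0.285). At 9 d it was lower by 0.19 than at -8 d (adjusted p = 0.0847), and the within-cow fit called that difference (-0.21, adjusted p = 0.0341). SLC39A2 (ZIP2) fell by 0.26 at 1 d (adjusted p = 0.0309), a call lost in 8 of 19 alternatives (adjusted p up to 0.146). Beside the zinc carriers, the zinc-binding metallothioneins rose at 1 d, MT1A by 3.38 (SE 0.44, adjusted p = 1.41e-06) and MT2A by 1.84 (SE 0.29, adjusted p = 2.43e-05). MTF1, the zinc-sensing factor that drives metallothionein and SLC30A1 transcription, fell by 0.22 (adjusted p = 0.0163).

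Of 26 carriers of other ions, 4 rose and 1 fell at 1 d (beside 16.5% and 12.3% of named genes), 0 passed at 9 d against -8 d, and 1 rose and 2 fell from 1 d to 9 d (median changes 0.00, -0.01 and -0.03). At 9 d, limma gave 1 higher and 3 lower ion carriers at an unadjusted p under 0.05. SLC11A2 (DMT1), which imports ferrous iron, was at 5.52, 5.95 and 6.19 at -8 d and at 5.85, 6.30 and 6.93 at 1 d (lowest, median, highest). It rose by 0.42 (adjusted p = 0.00391), in 8 of 8 cows. SLC8B1 (NCLX), the sodium-calcium exchanger of mitochondria, rose by 0.42 at 1 d (adjusted p = 0.00196), in 8 of 8 cows, and fell by 0.28 from 1 d to 9 d (adjusted p = 0.0406), the latter a call lost in 8 of 19 alternatives (adjusted p up to 0.183). SLC4A4 (NBCe1), a sodium-bicarbonate cotransporter, rose by 0.46 (adjusted p = 0.0174, and 0.0558 in the within-cow fit), and SLC12A4 (KCC1), a potassium-chloride cotransporter, by 0.25 (adjusted p = 0.00572).

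SLC31A1 (CTR1), the high-affinity copper importer, was at 12.04, 12.16 and 12.30 at -8 d, 11.83, 12.04 and 12.20 at 1 d, and 12.11, 12.22 and 12.39 at 9 d. The median was lowest at 1 d, with overlapping ranges. SLC31A1 fell by 0.16 at 1 d (adjusted p = 0.00492), lower in 7 cows and higher in 0 of 8, and rose by 0.21 from 1 d to 9 d (adjusted p = 0.000337), in 9 of 10 cows. SLC20A1 (PiT1), a phosphate importer, fell by 0.43 from 1 d to 9 d (adjusted p = 0.0386), a call lost in 11 of 20 alternatives (adjusted p up to 0.166).

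Of 18 carriers of organic anions and cations, which take bile acids, hormones and drugs across the hepatocyte membrane, 3 rose and 5 fell at 1 d (beside 16.5% and 12.3% of named genes), 2 rose and 1 fell at 9 d, and 3 rose and 3 fell from 1 d to 9 d (median changes -0.09, -0.02 and 0.10). SLCO2B1 (OATP2B1), an importer of steroid sulphates and drugs, was at 9.72, 9.90 and 10.07 at -8 d, 9.06, 9.43 and 9.80 at 1 d, and 9.53, 9.87 and 10.05 at 9 d (lowest, median, highest). Levels were low at 1 d and much alike on the other days. SLCO2B1 fell by 0.47 at 1 d (SE 0.07, adjusted p = 1.72e-05), in 8 of 8 cows, and rose by 0.42 from 1 d to 9 d (adjusted p = 9.39e-05), in 10 of 10 cows. Another probe set of it passed both ways, with -0.28 and 0.38. SLCO4C1, a relative of it, fell by 0.55 at 9 d (SE 0.12, adjusted p = 0.00175), in 9 of 10 cows. SLCO1B3, a liver importer of bile acids and drugs, changed by 0.00 at 1 d (adjusted p = 0.972).

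The basolateral bile acid exporter has the chains SLC51A and SLC51B. SLC51B (OST-beta) was at 7.73, 9.12 and 9.75 at -8 d, 7.71, 8.52 and 9.81 at 1 d, and 8.52, 9.12 and 9.80 at 9 d. It fell by 0.61 at 1 d (SE 0.19, adjusted p = 0.0178), in 7 of 8 cows, and rose by 0.59 from 1 d to 9 d (adjusted p = 0.0256), in 9 of 10; the ranges overlapped on all days. The first call was lost without cow 483 and among the cows with all 3 days (adjusted p up to 0.0772) and the second in 6 of 20 alternatives (adjusted p up to 0.0958). SLC51A (OST-alpha), dim at 3.34 to 4.71, rose by 0.38 at 9 d (adjusted p = 0.0314), a call lost in 8 of 19 alternatives (adjusted p up to 0.0932).

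SLC22A18 was at 8.52, 8.88 and 9.09 at -8 d, 8.45, 8.66 and 8.91 at 1 d, and 8.85, 9.15 and 9.26 at 9 d. It fell by 0.21 at 1 d (adjusted p = 0.0111), rose by 0.43 from 1 d to 9 d (SE 0.06, adjusted p = 3.31e-06), in 10 of 10 cows, and stood higher by 0.22 at 9 d than at -8 d (adjusted p = 0.00985). SLC22A7 (OAT2), an importer of organic anions, rose by 0.59 at 1 d (adjusted p = 0.0318) and fell by 0.62 from 1 d to 9 d (adjusted p = 0.0294), calls that were lost in 9 and in 7 of 20 alternatives (adjusted p up to 0.117 and 0.119). SLC10A3 rose by 0.23 at 1 d (adjusted p = 0.00414) and fell by 0.24 from 1 d to 9 d (adjusted p = 0.00379). SLC22A23 passed as a rise at 1 d and fell by 0.49 from 1 d to 9 d (adjusted p = 0.000596), with medians of 6.44 at -8 d, 6.73 at 1 d and 6.28 at 9 d. SLC22A17, a lipocalin receptor, fell by 0.22 at 1 d (adjusted p = 0.0301), and SLCO3A1 by 0.21 (adjusted p = 0.0476, and 0.106 in the within-cow fit); these calls were lost in 4 of 20 and 14 of 19 alternatives.

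Of 16 members of the SLC35 family, classed here as nucleotide sugar carriers of the ER and Golgi, 5 rose and 0 fell at 1 d (limma; also 5 and 0 at an unadjusted p under 0.05), 1 rose at 9 d, and 0 rose and 4 fell from 1 d to 9 d (median changes 0.07, 0.03 and -0.09). Of named genes, 16.5% rose and 12.3% fell at 1 d. The class follows the gene family, and not every member carries nucleotide sugars. SLC35B1, the ER carrier that exchanges ATP for ADP and so supplies its chaperones, was at 8.57, 7.96, 8.01, 7.91 and 8.23 in the CON arrays at -8 d and at 9.13, 8.14, 9.15 and 8.76 in those at 1 d. In HIGH it was at 7.40, 7.73, 7.68, 7.89 and 8.12 at -8 d and at 8.34, 9.02 and 9.62 (lowest, median, highest) at 1 d. The HIGH days did not overlap, and 1 low CON array at 1 d overlapped with -8 d. SLC35B1 rose by 0.96 (SE 0.15, 1.95-fold, adjusted p = 1.6e-05), in 8 of 8 cows, the largest rise of any member, and fell by 0.63 from 1 d to 9 d (adjusted p = 0.00237), in 10 of 10. At 9 d it was higher by 0.33 than at -8 d (adjusted p = 0.143), and the within-cow fit called that difference (0.37, adjusted p = 0.0471).

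SLC35D2, a Golgi carrier of UDP-sugars, rose by 0.43 at 1 d (adjusted p = 0.000205) and by 0.24 at 9 d (adjusted p = 0.0439), the latter a call lost in 9 of 20 alternatives (adjusted p up to 0.226). SLC35A2, the UDP-galactose carrier, rose by 0.26 (adjusted p = 0.00386), with another probe set at -0.01. SLC35E3 rose by 0.25 (adjusted p = 0.00527) and SLC35A5 by 0.21 (adjusted p = 0.0116); they fell by 0.20 and 0.19 from 1 d to 9 d (adjusted p = 0.0221 and 0.0216), calls lost in 4 and 5 of 20 alternatives (adjusted p up to 0.117 and 0.133).

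The class of nucleoside, vitamin, haem and fatty acid carriers, which also holds the acetyl-CoA carrier, had 3 rises and 1 fall among 17 members at 1 d (beside 16.5% and 12.3% of named genes), 1 rise at 9 d and 1 fall from 1 d to 9 d (median changes -0.02, 0.02 and 0.04). SLC33A1 (AT-1), which brings acetyl-CoA into the ER for protein acetylation, was at 10.11, 9.54, 9.70, 9.89 and 10.01 in CON and at 8.70, 9.25, 9.53, 9.53 and 9.35 in HIGH at -8 d. At 1 d, both diets together gave 9.88, 10.27 and 10.79 (lowest, median, highest), and at 9 d 9.26, 9.71 and 10.29. The HIGH arrays at -8 d were the low ones, with no value above the lowest of CON. SLC33A1 rose by 0.75 at 1 d (SE 0.11, 1.68-fold, adjusted p = 9.11e-06), in 8 of 8 cows, and fell by 0.61 from 1 d to 9 d (adjusted p = 0.000129), in 10 of 10 cows.

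SLC27A2 (FATP2), which takes up and activates long-chain fatty acids, was at 11.81, 11.95 and 12.09 at -8 d, 11.63, 12.34 and 12.87 at 1 d, and 12.24, 12.41 and 12.63 at 9 d. All arrays at 9 d lay above all at -8 d, while 1 d spanned both. SLC27A2 rose by 0.35 at 1 d (adjusted p = 0.00209), in 7 of 8 cows, and by 0.46 at 9 d (SE 0.08, adjusted p = 0.000137), in 10 of 10. Its relative SLC27A6 (FATP6) fell by 0.50 at 1 d (adjusted p = 0.0357), in 8 of 8 cows, a call lost in 8 of 20 alternatives (adjusted p up to 0.0974). SLC52A2, a riboflavin transporter, rose by 0.20 at 1 d (adjusted p = 0.00837), with other probe sets at -0.01 and -0.07.

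Of 9 carriers of osmolytes, neurotransmitters, choline and urea, 1 rose and 1 fell at 1 d (beside 16.5% and 12.3% of named genes), 1 rose at 9 d and 1 rose from 1 d to 9 d (median changes -0.01, 0.00 and 0.00). SLC6A11 (GAT-3), a transporter of GABA that also takes up taurine and beta-alanine, was at 10.64, 10.75 and 11.07 at -8 d, 10.56, 11.38 and 12.01 at 1 d, and 10.91, 11.21 and 11.60 at 9 d. It rose by 0.61 at 1 d (SE 0.09, adjusted p = 1.46e-05), in 7 of 8 cows, and by 0.42 at 9 d (adjusted p = 0.00189), in 10 of 10. Another probe set of it rose by 0.80 and 0.35. SLC6A8, the creatine transporter, fell by 0.31 at 1 d (adjusted p = 0.00375) and rose by 0.29 from 1 d to 9 d (adjusted p = 0.00747). The remaining 3 members are SLC66A3 and SLC4A1AP and SLC7A6OS, both of the latter named after a transporter gene rather than being one, and 0 of 3 passed in any of these comparisons.

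Carriers and partners outside the SLC names were read from a list of 36 genes, of which 25 were measured. At 1 d, 9 rose and 4 fell, beside 16.5% and 12.3% of named genes. At 9 d against -8 d, 7 rose and 0 fell, beside 7.79% and 5.08% of named genes. From 1 d to 9 d, 2 rose and 4 fell, beside 7.44% up and 920 of 9155 down among named genes. The mitochondrial pyruvate carrier rose in both subunits, MPC1 by 0.51 at 1 d (adjusted p = 0.000396) and by 0.55 at 9 d (adjusted p = 0.000218), and MPC2 by 0.20 (adjusted p = 0.00138) and 0.14 (adjusted p = 0.0275). MFSD2A, a lysophospholipid carrier, rose by 0.87 at 1 d (adjusted p = 0.0127) and 1.07 at 9 d (adjusted p = 0.00353). VDAC1, a channel of the outer mitochondrial membrane, rose by 0.32 at 1 d (adjusted p = 0.00677). Its relatives VDAC2 and VDAC3 did not pass at 1 d (0.02 and 0.10, adjusted p = 0.753 and 0.218). RHBG, an ammonia channel, fell by 0.79 at 1 d (adjusted p = 0.000319) and rose by 0.79 from 1 d to 9 d (adjusted p = 0.000328).

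Each diet taken alone gave fewer calls. At 1 d against -8 d, 13 members passed in CON (7.22%, beside 6.34% of all probe sets) and 36 in HIGH, beside 16.6%. At 9 d against -8 d, 1 passed in CON (0.556%, beside 1.84%) and 7 in HIGH (3.89%, beside 3.56%). From 1 d to 9 d, 7 passed in CON (3.89%, beside 2.76%) and 20 in HIGH (11.1%, beside 9.14%). These are shares of all probe sets. Over both diets named genes passed more often than all probe sets, and their share was not counted per diet. The CON counts rested on few arrays: without cow 483 the count at 1 d was 5 and without cow 445 it was 27, and the count from 1 d to 9 d was 1 without cow 483. In HIGH the count at 1 d ranged from 24 (without cow 439) to 40 (without cow 512), and from 1 d to 9 d it fell to 12 without cow 529.

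The difference between the diets' changes was tested by the diet-by-time contrasts, and 0 of 180 members passed at 1 d against -8 d, 9 d against -8 d or 9 d against 1 d, as did 0% of all probe sets in each (limma). At an unadjusted p under 0.05 there were 17, 4 and 11 members (9.44%, 2.22% and 6.11%), beside 7.17%, 3.29% and 6.78% of all probe sets. SLC33A1 had the smallest value at 1 d: the CON mean was 9.85 ± 0.23 (SD, n = 5) at -8 d and 10.21 ± 0.31 (SD, n = 4) at 1 d, the HIGH mean 9.27 ± 0.34 (SD, n = 5) and 10.37 ± 0.27 (SD, n = 6), and the changes differed by 0.71 (SE 0.22, limma adjusted p = 0.579). SLC16A1 rose by 1.27 in HIGH (SE 0.22, adjusted p = 0.000112) and changed by 0.55 in CON (adjusted p = 0.189), and these differed by 0.72 (SE 0.33, limma adjusted p = 0.688). SLC35B1 rose by 1.24 in HIGH (adjusted p = 4.82e-05) and changed by 0.69 in CON (adjusted p = 0.0599), a difference that did not pass (adjusted p = 0.736). SLC25A34 had the reverse order, with a rise of 1.16 in CON (adjusted p = 0.0227) and a change of 0.36 in HIGH (adjusted p = 0.424), which differed by -0.80 (adjusted p = 0.732). SLC13A3 fell in both, by 0.54 in CON (adjusted p = 0.0318) and by 0.96 in HIGH (adjusted p = 1.24e-05).

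**Figure D5:**
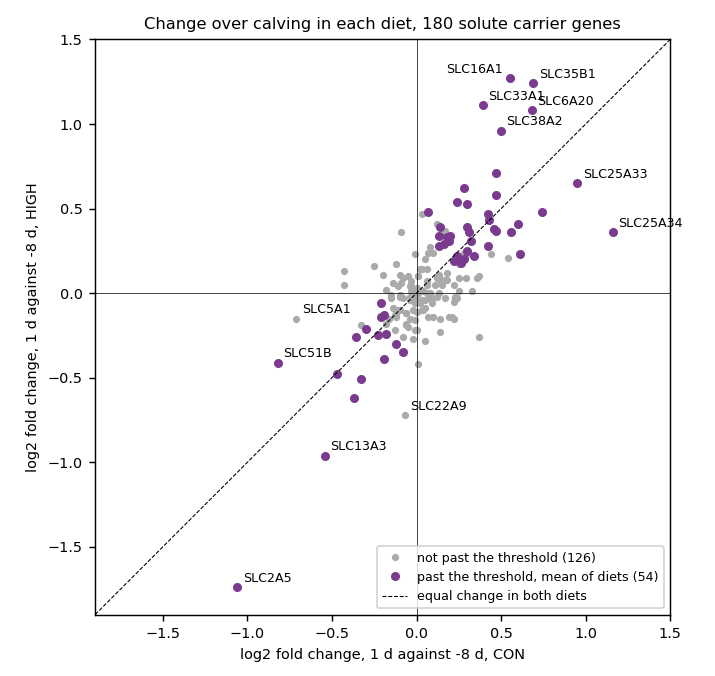
Log2 change from -8 d to 1 d of each of the 180 solute carriers in CON cows (x axis) and HIGH cows (y axis), with the 54 that passed over both diets marked and the line of equal change drawn. Passing on the mean of the diets favours genes with the same sign in both, so the marked points are a description; SLC16A1, SLC35B1 and SLC33A1 lie above the line and SLC25A34 and SLC25A33 below it.

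HIGH against CON on a single day called 0 of 180 members on each of the 3 days (limma), beside 0% of all probe sets at -8 d, 0.00416% (1 probe set) at 1 d and 0% at 9 d. At an unadjusted p under 0.05 there were 10, 20 and 7 members (5.56%, 11.1% and 3.89%), beside 4.27%, 8.38% and 3.39% of all probe sets. The lowest p at -8 d belonged to SLC33A1, lower in HIGH by 0.58 (log2 difference -0.58, SE 0.16, limma adjusted p = 1). At 1 d it belonged to SLC25A6 (-0.42, SE 0.13, adjusted p = 0.396), which turned to 0.06 when the gene's probe sets were averaged. SLC5A1 at 1 d was at 6.85, 6.56, 6.36 and 7.20 in CON and at 6.82, 7.44 and 7.98 (lowest, median, highest) in HIGH, a difference of 0.65 (SE 0.26, adjusted p = 0.526) with overlapping groups. SLC6A11 at 1 d was lower in HIGH, with -0.37 (adjusted p = 0.501). At 9 d SLC46A2 had the lowest p, with -0.22 (adjusted p = 0.998). These values do not show that the diets gave equal levels.

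Of 10 listed hepatocyte genes 10 were measured, with a list mean of 12.78 to 13.03 at -8 d, 12.89 to 13.14 at 1 d and 12.77 to 13.04 at 9 d. At 1 d 4 of them rose, among them APOA1 by 0.80, FGB by 0.88 and HNF4A by 0.50, and 4 fell, among them TTR (-0.32) and APOB (-0.19). Of 7 listed neutrophil genes 4 were measured and 4 rose at 1 d (S100A8 by 1.66, S100A9 by 0.80, S100A12 by 2.43 and LTF by 1.54), with a list mean of 6.24 to 7.27 at -8 d, 7.65 to 9.84 at 1 d and 6.67 to 8.38 at 9 d. Of 8 T and NK cell genes 5 fell at 1 d, with list means of 5.73 to 6.22 and 5.61 to 6.18. The difference between the 3' and 5' probe sets of elongation factor 1-alpha was -0.684 ± 0.119 (SD) at -8 d, -1.07 ± 0.154 at 1 d and -0.81 ± 0.134 at 9 d, while that of GAPDH was 0.543, 0.534 and 0.579. For cyclophilin it was 1.23, 1.19 and 1.25, and for actin 1.6, 1.61 and 1.78. The highest array for actin was at 2.2 at -8 d, 1.92 at 1 d and 3.87 at 9 d. The part of these in the solute carrier values was not tested.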

How the data were processed

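Liver total RNA was measured as biotinylated cRNA on 32 arrays. The authors deposited log2 values made, per the submitters' processing notes, with Affymetrix Expression Console 1.1 and RMA, whose settings are not given in the sources used here. RMA compresses changes of the brightest and dimmest probe sets. The deposited values ran from 2.35 to 15.0, with array medians of 5.87 to 5.935. Precision depends on each gene's spread and on the number of cows and arrays.

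After 112 control probe sets were dropped from 24128, the other 24016 all entered the fit, whatever their level. The array annotation gave 1 symbol to 13292 of them, several to 86 and none to 10638; only the first were named. The 180 members had 251 probe sets. limma 3.58.1 (R 4.3.3) fitted the 6 groups; cow entered as a random effect (consensus correlation 0.138). The eBayes prior had a trend, 26 residual degrees of freedom remained and p-values were two-sided. The fit was tested on simulated data. Cow numbers pair the arrays: deviations from group means correlated at 0.323 on average within cows (28 pairs, 0.229 to 0.464). Between cows of the same diet on different days the average was -0.0638 (142 pairs). Deviations cancel out within each group, so a positive value within cows by itself draws the value between cows to the negative side. Diet differences lie between cows and cannot be fitted with cow as a fixed block.

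Named were, per comparison, the 5 members with the largest rise and fall among those past the threshold, the members with the smallest p in each class (up to 4) and diet contrast, and a list of 60 members well known in liver, of which 42 were measured, 112 members in all; the text gives those with the clearest values. The members, classes and lists were chosen with earlier results of these data known. Classes follow gene families. The marker lists of Kupffer cells (1 gene up, 1 down at 1 d), B and plasma cells (0 and 0 of 3 measured), stellate cells, endothelium and cholangiocytes (0 up and 1 down each) were read the same way. Alternatives were no block, a fixed cow block, no trend, a filter on probe sets under the median mean, arrays centred on their medians, array weights, the 8 cows with all 3 days, the mean of a gene's probe sets, and leaving out each cow.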

Additional observations from a re-analysis of the deposited data

Results flagged for a closer look

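In 22 members the results turn on, 132 groups of 4 to 6 arrays were searched for a single array far from the rest of its group, and 9 were found; such a search marks about 5 percent of groups by chance. SLC13A3 was at 8.17 in 1 HIGH array at -8 d, with the next at 7.99. SLC22A7 was at 7.50 in 1 CON array at -8 d (next 6.48) and at 5.60 in 1 HIGH array at -8 d (next 6.40). SLC25A33 was at 9.50 in the CON array of cow 445 at -8 d, the same array as the high SLC22A7 value (next 8.81). That array was also the highest CON array at -8 d for SLC16A1 (7.85), SLC35B1 (8.57), SLC33A1 (10.11) and SLC39A14 (12.78). The same held for SLC7A5 (6.05, next 5.28), SLC39A7 (8.89) and SLC20A1 (8.94), among others. It did not hold for SLC25A4, SLC25A3, SLC30A1 or SLC43A2, among others. Leaving out cow 445 with all its arrays gave a CON count at 1 d of 27 members, beside 13 with all cows. The part of this 1 array in the CON changes of the genes named was not tested. SLC25A34 was at 5.15 in 1 CON array at -8 d (next 5.92), and SLC25A38 at 8.49 in another (next 8.23). SLC51A was at 3.34 in 1 HIGH array at -8 d (next 3.48). SLC51B was at 9.81 in the HIGH array of cow 432 at 1 d (next 8.67), and SLC6A11 at 10.56 in that of cow 529 (next 11.16).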

How the results depend on the processing

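Of the 54 members called at 1 d, 31 stayed called under all alternatives, as did 9 of 17 at 9 d and 17 of 35 from 1 d to 9 d. With cow as a fixed replicate block, 53 members passed at 1 d (48 of them among the 54), 21 at 9 d (14 among the 17) and 37 from 1 d to 9 d (34 among the 35). Among changed calls not cited above, SLC5A9 at 1 d, SLC13A2 at 9 d, and SLC12A3 and SLC35D2 from 1 d to 9 d passed only in that fit. SLC35F6 passed from 1 d to 9 d only with the random block. Counts over both diets left the range of 1.5 times with array weights (29 at 9 d) and with the 8 cows of all 3 days (11 at 9 d, 21 from 1 d to 9 d). In CON at 1 d (13) they were 23 with the filter on low probe sets, 21 with array weights and 1 with the cows of all 3 days; at 9 d (1) 0 with no replicate block, 2 with the fixed replicate block, 6 with the filter and 5 with weights; from 1 d to 9 d (7) 12 with the filter and 1 with the cows of all 3 days. In HIGH at 9 d (7) the count was 11 with weights. Leaving out each cow gave 40 to 54, 13 to 22 and 25 to 36 over both diets, 5 to 27, 0 to 2 and 1 to 9 in CON, and 24 to 40, 4 to 9 and 12 to 21 in HIGH; all diet and diet-by-time counts stayed at 0. Signs turned only in values that had not passed: SLC4A1AP at 1 d (0.00, cows of all 3 days) and from 1 d to 9 d (0.01, weights), SLC7A6OS at 9 d (0.01 with the cows of all 3 days and with averaged probe sets), SLC25A6 for diet at 1 d (0.06, averaged probe sets), and, over the fits without single cows, SLC44A4 (-0.01 to 0.18), SLC66A3 (0.00 to 0.09) and SLC7A6OS (-0.04 to 0.02) at 9 d and SLC16A13 (-0.02 to 0.16) and SLC4A1AP (-0.05 to 0.01) from 1 d to 9 d. The cause was not tested.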
